A study of Mus musculus with 12 samples.

Results

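The Fc gamma receptors are the proteins by which macrophages bind the constant region of IgG antibody. The mouse genes measured were Fcgr1, Fcgr2b, Fcgr3 and Fcgr4, together with Fcer1g, which encodes the signalling chain shared by the activating receptors. They were chosen by symbol, from array probes annotated to a single gene, and each gene was read from its probe with the highest mean signal. These 5 genes, of 19057 with such a probe, were covered by 9 of the 45281 probes on the array. Fcgr2b had 5 of those probes and each of the other genes had 1.

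Fcgr1, Fcgr3 and Fcgr4 are activating receptors. They pair with the Fcer1g chain, whose cytoplasmic ITAM is phosphorylated by Src family kinases when antibody-coated particles cross-link the receptors, and the kinase Syk then starts engulfment and cytokine release. Fcgr2b is the single inhibitory member. It carries an ITIM in its own tail, recruits the lipid phosphatase SHIP1 (the product of Inpp5d) and raises the amount of immune complex needed to activate the cell. The balance between both kinds of receptor is known to set the response of macrophages to immune complexes.

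RNA came from bone marrow-derived macrophages (BMDM) of Balb/c mice, grown in 20 ng/ml M-CSF and then kept overnight without it. All groups were harvested after 6 h and hybridised to Illumina MouseWG-6 BeadChips, with 3 arrays, described as biological replicates, in each of 4 groups. The groups were BMDM given KLA plus hBD3, BMDM given 50 ng/ml KLA, BMDM given hBD3 and untreated BMDM. KLA (Kdo2-lipid A) is the part of bacterial lipopolysaccharide that activates TLR4, and hBD3 (human beta-defensin 3) is an antimicrobial peptide of epithelia. The labels give hBD3 at 5 mg/ml, where the methods give micrograms per ml, and give no doses for the combination. KLA replicates 2 and 3 were labelled KLA under treatment, although HBD3 also appears in their titles.

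Between 12363 and 15629 probes were detected per array, at a detection p-value under 0.01. All 10 macrophage markers with a probe, among them Adgre1, were detected in every array. With KLA against untreated BMDM, Csf1r (-1.78 on the log2 scale), C1qa (-1.11), C1qb (-1.09) and Mrc1 (-0.53) were lower. Their adjusted p was 2.43e-06 to 0.0388 by limma. Mertk (0.71) and Cd14 (0.61) were higher (adjusted p = 0.00262 and 0.00246 by limma). Adgre1, Itgam, Lyz2 and Msr1 did not pass the test. With KLA plus hBD3 against KLA, Csf1r, C1qa and C1qb were higher and Mertk lower (adjusted p of 0.00137 to 0.0311 by limma). The mean signal of an array before normalization was 177 to 241 in BMDM given KLA plus hBD3, 185 to 230 with KLA, 255 to 278 with hBD3 and 260 to 365 in untreated BMDM, so that both groups given KLA were dimmer. Of markers for other cells that carry Fc gamma receptors, 8 of 11 neutrophil, 6 of 8 NK cell, 4 of 5 B cell, 8 of 9 mast cell and basophil and 7 of 9 dendritic cell genes were undetected in every array. The summed neutrophil signal was 1246 to 1401 with KLA plus hBD3, 1318 to 1954 with KLA, 1363 to 1635 with hBD3 and 1314 to 1662 in untreated BMDM, with ranges that overlapped. Within that list, S100a8 (1.44 on the log2 scale, adjusted p = 0.00292 by limma) was higher with KLA than in untreated BMDM, Camp, undetected in untreated BMDM, was at least 2.17-fold higher (adjusted p = 0.0001 by limma), and Csf3r was lower (-0.81, adjusted p = 0.00837 by limma). In the stromal list, 3 of 8 genes were undetected in every array. Pdgfrb, undetected in untreated BMDM and with KLA plus hBD3, was at least 2.27-fold higher with KLA than in untreated BMDM (adjusted p = 0.000188 by limma), and the summed signal reached 4498 in 1 hBD3 array, against a low of 483 in that group. The part of these cells in the results was not tested. In RNA from whole cultures, fewer cells of a type and less RNA per cell cannot be told apart.

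The start regions of the receptor genes are shown first, as background. Whether they bear on the level of any receptor was not tested. Each is the 300-base RefSeq promoter window on GRCm38.p6, written 5′ to 3′ on the strand of the gene, and each of the 5 genes had at least 1 window. Capitals mark matches to any of 3 motifs searched on both strands: GAGGAA (the core bound by the macrophage factor PU.1), the core bound by interferon regulatory factors (GAAA, any pair of bases, then GAAA) and a loose kappa B core (GGG, any 5 bases, then CC).
Fcgr2b, chr1:170976022-170976321, minus strand: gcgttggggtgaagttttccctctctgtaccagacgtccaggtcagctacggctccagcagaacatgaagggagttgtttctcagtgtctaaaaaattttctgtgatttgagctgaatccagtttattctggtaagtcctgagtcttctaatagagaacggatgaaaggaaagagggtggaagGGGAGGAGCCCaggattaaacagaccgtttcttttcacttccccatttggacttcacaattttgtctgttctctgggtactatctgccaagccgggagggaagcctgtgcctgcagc
Fcgr3, chr1:171059354-171059653, minus strand: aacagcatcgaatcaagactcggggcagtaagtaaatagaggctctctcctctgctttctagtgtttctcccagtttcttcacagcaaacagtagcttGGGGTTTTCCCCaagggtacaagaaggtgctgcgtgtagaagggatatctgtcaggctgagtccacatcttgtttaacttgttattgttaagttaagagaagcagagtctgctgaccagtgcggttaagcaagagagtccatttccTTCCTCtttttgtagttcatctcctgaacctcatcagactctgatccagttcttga
Fcgr1, chr3:96293920-96294219, minus strand: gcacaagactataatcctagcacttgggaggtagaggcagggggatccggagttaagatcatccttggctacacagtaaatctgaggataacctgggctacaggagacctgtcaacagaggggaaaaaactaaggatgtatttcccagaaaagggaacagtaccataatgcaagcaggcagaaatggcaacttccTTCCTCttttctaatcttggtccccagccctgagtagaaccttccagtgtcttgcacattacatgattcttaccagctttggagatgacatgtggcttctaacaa
Fcgr4, chr1:171018676-171018975, plus strand: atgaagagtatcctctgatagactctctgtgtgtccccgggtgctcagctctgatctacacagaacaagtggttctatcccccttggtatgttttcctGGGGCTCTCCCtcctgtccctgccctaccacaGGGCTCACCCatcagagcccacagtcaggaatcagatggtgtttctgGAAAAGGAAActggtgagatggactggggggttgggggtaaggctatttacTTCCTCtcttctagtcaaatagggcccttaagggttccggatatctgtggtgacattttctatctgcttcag

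The windows held different sets of matches. The PU.1 core, present in 28.3% of all 32851 windows of this length, was found in Fcgr1, Fcgr3 and Fcgr4, on the other strand as TTCCTC, with the first base at -55, -6 and -22 from the start site in that order. A second Fcgr3 window, not shown, has another start site, from which this match begins at -15. Fcgr4 alone held the interferon regulatory factor core, GAAAAGGAAA, at -73 to -64, which 3.44% of all windows held. The kappa B core matched 50.8% of all windows and was present in Fcgr2b, Fcgr3, Fcgr4 and Fcer1g. Some of its matches overlapped one another, and no match overlapped one of another motif. A match is only a run of letters in these windows, and the arrays measured no binding. Fcgr2b, Fcgr4 and Fcgr3 lie next to each other on chromosome 1 in that order, with 0 protein-coding genes between neighbours in the RefSeq annotation. Fcer1g follows on the same chromosome after 7 protein-coding genes, and Fcgr1 is on chromosome 3.

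Fcgr2b, the inhibitory receptor, was far higher after KLA than in untreated BMDM, and with KLA plus hBD3 it stood between these groups. Its log2 quantile-normalized intensity was 10.55, 10.79 and 10.56 in the arrays with KLA plus hBD3. It was 12.23, 12.28 and 12.48 with KLA, 9.49, 9.47 and 9.13 with hBD3, and 9.05, 9.65 and 8.99 in untreated BMDM. Every KLA array lay above every array with KLA plus hBD3, which in turn all lay above the hBD3 and untreated arrays, and these last groups overlapped.

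The corresponding intensities on the linear scale averaged 1593 ± 153 with KLA plus hBD3, 5174 ± 486 with KLA, 663 ± 90.2 with hBD3 and 613 ± 164 in untreated BMDM (SD, n = 3 each). KLA raised Fcgr2b 8.61-fold over untreated BMDM (95% confidence interval 6.71 to 11.03), a log2 change of 3.11 ± 0.16 (SE, adjusted p = 1.72e-07 by limma). Given together with KLA, hBD3 left the signal 1.70 ± 0.16 log2 units below KLA alone, that is 3.25-fold lower (adjusted p = 5.67e-05 by limma). The combination still exceeded untreated BMDM by 1.41 ± 0.16 (adjusted p = 0.000612 by limma), or by 0.76 where arrays were centred on their medians in place of quantile normalization (adjusted p = 0.0131 by limma). For hBD3 alone the log2 change was 0.14, with a 95% confidence interval of -0.22 to 0.49 (adjusted p = 0.907 by limma).

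**Figure D1:**
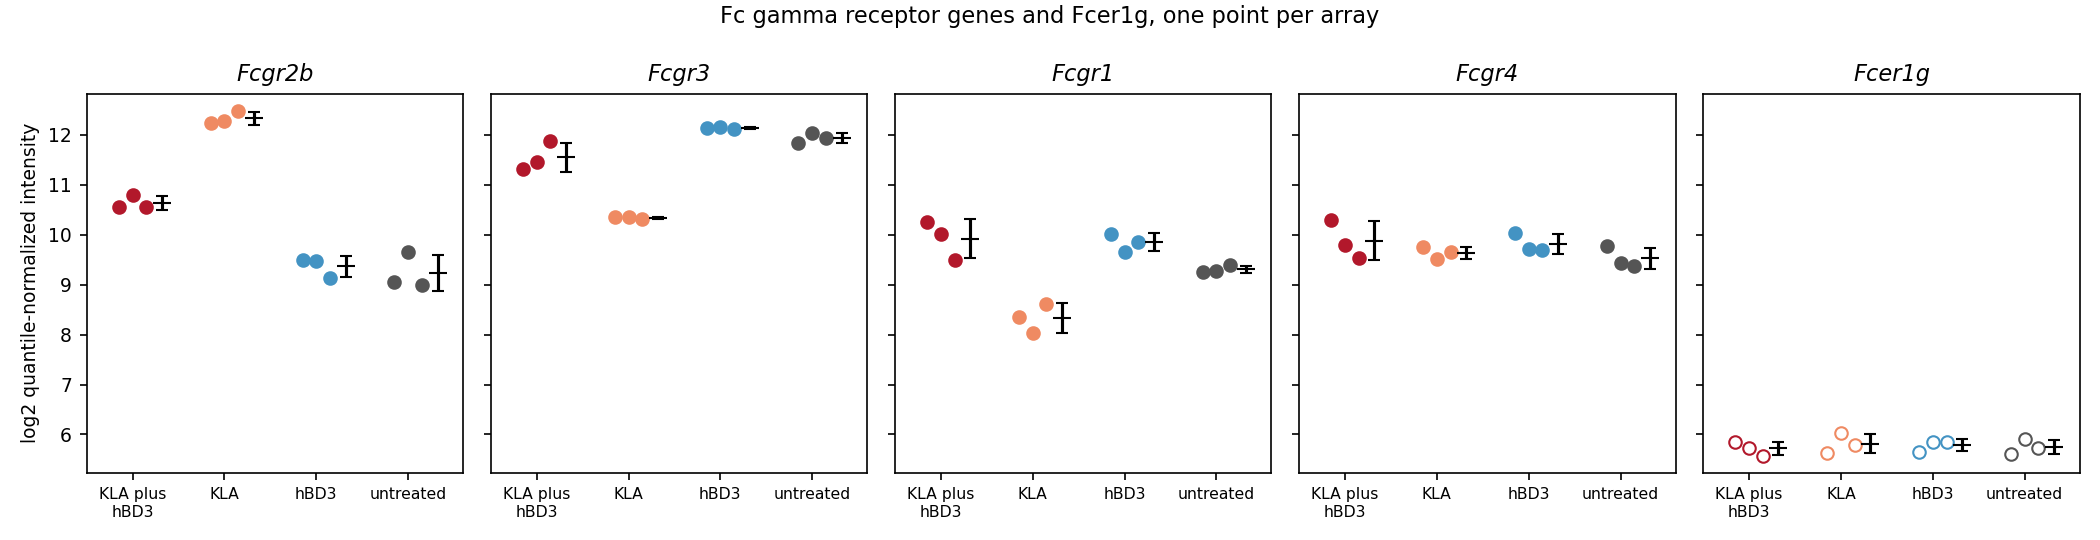
Log2 quantile-normalized intensity (vertical axis) of the 5 genes in each array, by group, with the mean and SD of each group beside the points. Filled points belong to groups in which all 3 arrays detected the probe. Fcgr2b was highest with KLA, where Fcgr3 and Fcgr1 were lowest, Fcgr4 groups overlapped, and Fcer1g stayed undetected at a mean of 5.72 to 5.82.

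The other Fcgr2b probes gave the same order wherever they rose above background. ILMN_3102376, detected in all 12 arrays, averaged 7.99 ± 0.14 log2 units with KLA plus hBD3, 9.93 ± 0.27 with KLA, 7.07 ± 0.19 with hBD3 and 6.92 ± 0.16 in untreated BMDM (SD, n = 3 each). It was 3.01 higher with KLA than in untreated BMDM (adjusted p = 8.43e-08 by limma) and 1.94 lower with KLA plus hBD3 than with KLA (log2 change -1.94, adjusted p = 1.04e-05 by limma). This second bright probe thus moved as far as the one used for the gene.

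ILMN_3029178 was detected in all arrays with KLA plus hBD3 and all arrays with KLA, and in none of the hBD3 or untreated arrays. Set against the lowest detected signal of each such array, it was at least 2.69-fold higher with KLA than in untreated BMDM (adjusted p = 1.54e-06 by limma), and it was lower by a log2 change of -1.09 with KLA plus hBD3 than with KLA (adjusted p = 8.94e-05 by limma). ILMN_2447970 was detected in 1 KLA array only, and ILMN_2577664 in none. These dim probes limit the level of a gene averaged over all its probes: the Fcgr2b change was then 1.67 with KLA over untreated BMDM and -1.05 with KLA plus hBD3 over KLA, still called (adjusted p = 1.29e-07 and 1.38e-05 by limma). The transcript that each probe targets is not given in the sources used here. Fcgr2b and Fcgr3 share similar coding sequence, and hybridization of 1 transcript to the probe of the other was not tested.

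**Figure D2:**
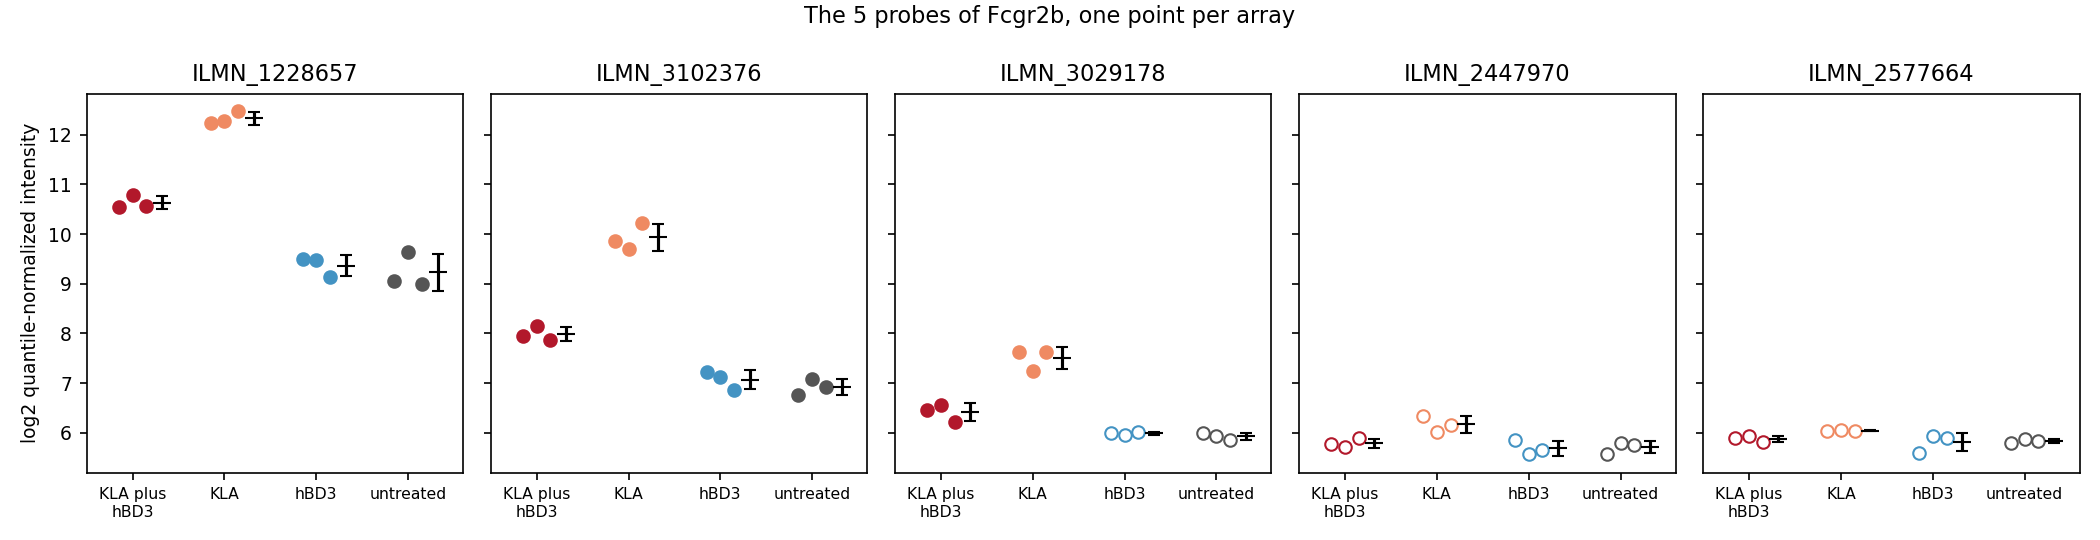
Log2 quantile-normalized intensity (vertical axis) of each of the 5 Fcgr2b probes in every array, by group, with mean and SD. Filled points mark groups in which all 3 arrays detected the probe; the 3 probes so detected in any group were highest with KLA, and the remaining probes stayed near background.

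Fcgr3, a low-affinity activating receptor, moved the opposite way. Its log2 intensities were 11.32, 11.46 and 11.88 with KLA plus hBD3 and 10.35, 10.35 and 10.31 with KLA. They were 12.14, 12.16 and 12.11 with hBD3 and 11.83, 12.04 and 11.94 in untreated BMDM. The KLA arrays were the lowest of all, the hBD3 arrays were the highest, and replicate 3 with KLA plus hBD3 lay within the untreated range.

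Linear intensities of Fcgr3 averaged 3046 ± 633 with KLA plus hBD3, 1295 ± 19.2 with KLA, 4508 ± 82.3 with hBD3 and 3928 ± 276 in untreated BMDM (SD, n = 3 each). KLA lowered Fcgr3 3.03-fold below untreated BMDM, a log2 change of -1.60 ± 0.12 (SE, adjusted p = 1.87e-06 by limma). Fcgr3 was 2.32-fold higher with KLA plus hBD3 than with KLA alone (1.21 ± 0.12 on the log2 scale, adjusted p = 5.62e-05 by limma).

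For Fcgr3 with KLA plus hBD3 against untreated BMDM, the log2 change of -0.38 ± 0.12 did not pass the test (adjusted p = 0.102 by limma). This outcome depended on 1 array: without KLA plus hBD3 replicate 3 the change was -0.55 and was called (adjusted p = 0.00388 by limma). Median centring gave a called change of -0.95 (adjusted p = 0.0102 by limma). For hBD3 alone the change was 0.20, with an interval of -0.05 to 0.46 (adjusted p = 0.765 by limma).

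Fcgr1, the high-affinity receptor that can hold monomeric IgG, was also lowest after KLA. Its log2 intensities were 10.26, 10.01 and 9.504 with KLA plus hBD3 and 8.34, 8.03 and 8.62 with KLA. They were 10.02, 9.66 and 9.85 with hBD3 and 9.25, 9.28 and 9.39 in untreated BMDM. No KLA array reached any other group, and every array with hBD3, with or without KLA, lay above every untreated array.

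Linear intensities of Fcgr1 averaged 993 ± 250 with KLA plus hBD3, 326 ± 65.4 with KLA, 925 ± 114 with hBD3 and 633 ± 31.8 in untreated BMDM (SD, n = 3 each). KLA lowered it 1.97-fold below untreated BMDM (-0.98 ± 0.18, SE, adjusted p = 0.00273 by limma), or by a log2 change of -1.63 after median centring (adjusted p = 0.000356 by limma). Fcgr1 was 3.02-fold higher with KLA plus hBD3 than with KLA alone (1.59 ± 0.18, adjusted p = 0.000202 by limma).

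Against untreated BMDM the change of Fcgr1 was 0.62 ± 0.18 with KLA plus hBD3 (adjusted p = 0.0942 by limma) and 0.54 ± 0.18 with hBD3 (adjusted p = 0.518 by limma), so neither passed the test. Without KLA plus hBD3 replicate 3, the array lowest in that group, the first of these was 0.83 and called (adjusted p = 0.0168 by limma). After median centring it was -0.03 (adjusted p = 0.956 by limma), so its direction is not settled.

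Fcgr4, the mouse activating receptor for IgG2a and IgG2b, showed no detectable change. Its log2 intensities were 10.30, 9.79 and 9.54 with KLA plus hBD3, 9.75, 9.52 and 9.65 with KLA, 10.03, 9.71 and 9.69 with hBD3, and 9.77, 9.43 and 9.38 in untreated BMDM. All 4 groups overlapped, and replicate 1 with KLA plus hBD3 was the highest array. With KLA against untreated BMDM the log2 change was 0.11, with a 95% confidence interval of -0.27 to 0.49 (adjusted p = 0.791 by limma). Between KLA plus hBD3 and KLA it was 0.24, with an interval of -0.14 to 0.62 (adjusted p = 0.648 by limma). Changes of up to about these bounds remain possible at this number of arrays. Same-numbered hBD3 and untreated arrays differed by 0.27, 0.29 and 0.31, hBD3 being higher in each, and with the replicate number as a block over the KLA, hBD3 and untreated arrays this change of 0.29 was not called (adjusted p = 0.213 by limma).

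The single Fcer1g probe was not detected in any of the 12 arrays. Its log2 signal averaged 5.72 with KLA plus hBD3, 5.82 with KLA, 5.78 with hBD3 and 5.75 in untreated BMDM, and its lowest detection p-value in any array was 0.0662. The signalling chain is background in these measurements, and no level or change of the transcript can be read from this probe. No fold is given, since every group was below detection.

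**Figure D3:**
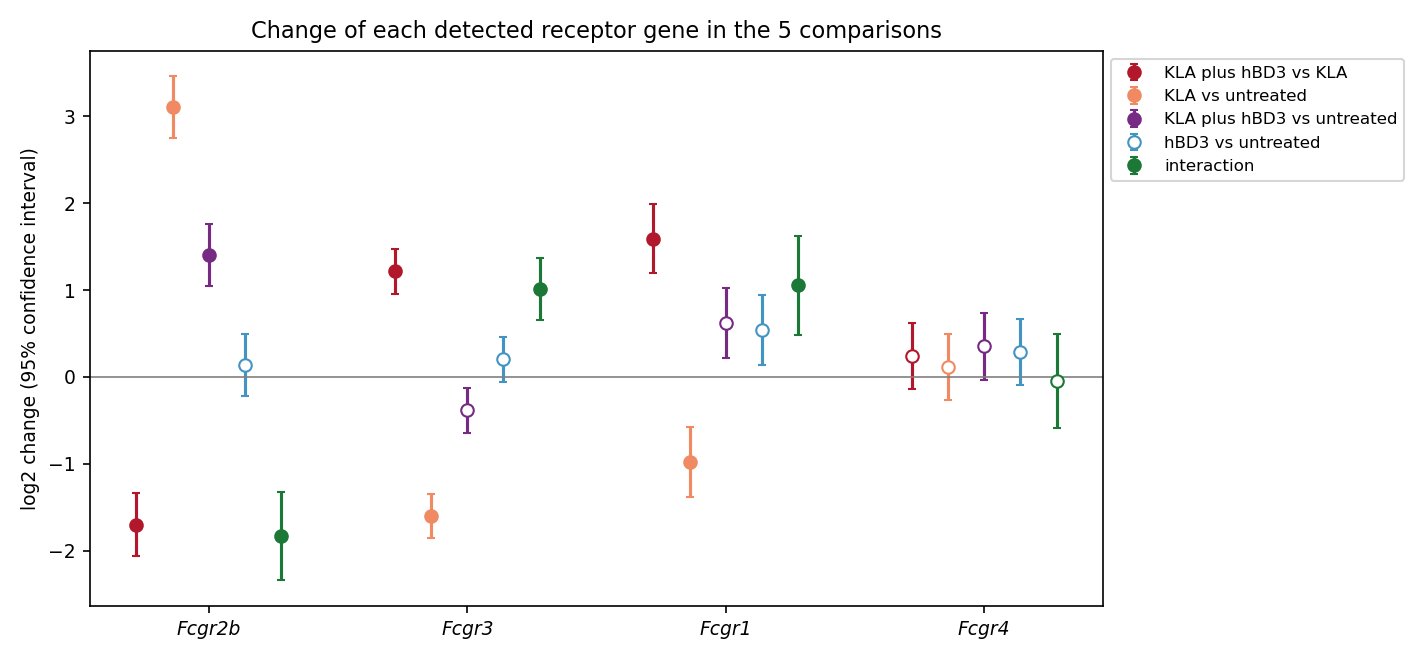
Log2 change of each detected receptor gene with its 95% confidence interval (vertical axis) in the 5 comparisons, with filled points at an adjusted p under 0.05. Fcgr2b rose by 3.11 with KLA and was 1.70 lower with KLA plus hBD3 than with KLA, while Fcgr3 and Fcgr1 had the opposite signs in both. Fcgr4 has only open points.

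In KLA plus hBD3 against KLA, 3 of the 5 genes were called, 2 higher and 1 lower, where 6.99% of all 45281 probes (3.5% higher and 3.48% lower) and 24.6% of the 8271 detected genes were called. In KLA against untreated BMDM it was 1 higher and 2 lower of the 5, beside 14.8% of all probes (6.84% higher and 8% lower) and 46.2% of detected genes. In KLA plus hBD3 against untreated BMDM only Fcgr2b was called, as higher, with 4.39% of all probes called (1.96% higher and 2.42% lower) and 14.9% of detected genes. For hBD3 alone limma called 0 of the 5, 0.00442% of all probes (2, or 85 with that block) and 0.0121% of detected genes, and at an unadjusted p under 0.05 only Fcgr1 passed. With detected genes called this often, 3 of 5 is not by itself a result about this family, and 4 of the 5 genes had a detected probe. These comparisons share arrays, so a fall with KLA and a rise with KLA plus hBD3 over KLA are not separate evidence.

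Whether hBD3 acted differently in the presence of KLA was tested as the interaction, the log2 change with KLA plus hBD3 over KLA minus that with hBD3 over untreated BMDM. It was -1.84 ± 0.23 for Fcgr2b (adjusted p = 0.00115 by limma), 1.01 ± 0.17 for Fcgr3 (adjusted p = 0.00533 by limma) and 1.05 ± 0.26 for Fcgr1 (adjusted p = 0.0497 by limma). These are 3 of 5 genes, 2 higher and 1 lower, where 3.41% of all probes (1.66% higher and 1.74% lower) and 12.6% of detected genes were called. For Fcgr4 it was -0.05, with an interval of -0.59 to 0.49 (adjusted p = 0.971 by limma). The Fcgr1 call sat at the threshold: it held in 6 of 19 alternatives, with adjusted p between 0.00354 and 0.128 by limma. It was lost without any 1 of 10 arrays, which were KLA plus hBD3 replicates 1 and 2, KLA replicates 1 and 2, and each hBD3 and untreated array, with changes of 0.89 to 1.14 and adjusted p of 0.0646 to 0.122 by limma. The Fcgr3 call was lost with median centring (1.16, adjusted p = 0.0959 by limma).

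The balance of the inhibitory receptor against each activating receptor was described within each array, as the log2 signal of Fcgr2b minus that of the other gene, set to 0 at the untreated mean. Against Fcgr3 the shift was 1.94, 2.04 and 1.39 in the arrays with KLA plus hBD3 and 4.59, 4.64 and 4.88 in the KLA arrays. It was 0.06, 0.02 and -0.28 with hBD3 and -0.08, 0.32 and -0.24 in untreated BMDM. The KLA arrays stood furthest toward the inhibitory receptor, those with KLA plus hBD3 lay between, and hBD3 arrays mixed with untreated ones.

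Against Fcgr1 the shift averaged 0.79 ± 0.39 with KLA plus hBD3, 4.08 ± 0.22 with KLA and -0.40 ± 0.27 with hBD3 (SD, n = 3 each). Against Fcgr4, which itself showed no detectable change, it averaged 1.05 ± 0.44 with KLA plus hBD3, 2.99 ± 0.18 with KLA and -0.15 ± 0.18 with hBD3. In each pair KLA plus hBD3 lay between KLA and untreated BMDM. The shift is a change from untreated cells and does not compare the levels of the 2 genes, whose probes have different brightness. It restates the RNA signals given above and is not separate evidence, and receptor protein was not measured on these arrays.

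**Figure D4:**
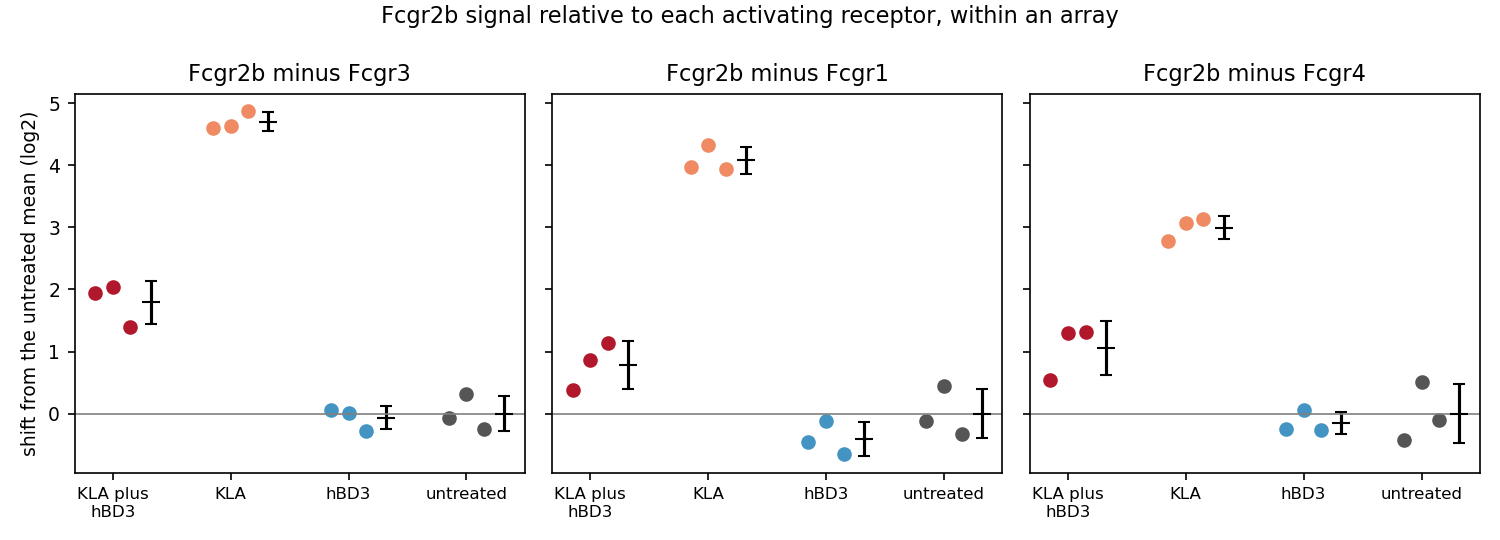
Log2 signal of Fcgr2b minus that of Fcgr3, Fcgr1 or Fcgr4 in each array, as a shift from the untreated mean (vertical axis), by group, with mean and SD of 3 arrays. The KLA arrays have means of 4.70, 4.08 and 2.99 in these panels, above the arrays with KLA plus hBD3 at 1.79, 0.79 and 1.05.

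Across the 12 arrays, which share their 4 treatments, Fcgr2b and Fcgr3 ran against each other (Pearson r = -0.95), as did Fcgr2b and Fcgr1 to a lesser degree (r = -0.67). Fcgr1 and Fcgr3 ran together (r = 0.75). The correlation of Fcgr4 with Fcgr1 was weaker (r = 0.53), and there was almost none with Fcgr2b or Fcgr3 (r = -0.002 and 0.002). These values describe the treatments more than they do independent samples. Among 8270 other detected genes, the closest to Fcgr2b were Lzts3, Ext1, an enzyme that builds heparan sulphate chains, and Lrrc8c, a subunit of volume-regulated anion channels (r = 0.99 each). The closest to Fcgr3 were Sesn1, a stress-induced regulator of nutrient signalling, P2ry6, a receptor for extracellular UDP, and Apobec1, the RNA editing enzyme (r = 0.99 each). Those closest to Fcgr1 were Cryl1, Dalrd3 and Ppdpf (r = 0.94, 0.93 and 0.93). Fcgr4 had no comparably close gene, with Gstk1, Cdkn3 and Birc5 at r = 0.85, 0.83 and 0.83. The signal of Fcer1g is background, and its correlations are not given.

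Genes that work with the receptors were read from lists chosen by function. The counts below are to be read beside all 8271 detected genes. With KLA plus hBD3 against KLA limma called 24.6% of those (1113 higher and 918 lower), with a median log2 change of 0.02. With KLA against untreated BMDM it called 46.2% (1700 higher and 2121 lower), with a median of -0.07. A count near these shares is not by itself a result about a list. Of 12 other receptors and carriers of antibody with a probe, 3 rose and 1 fell with KLA plus hBD3 against KLA, and 2 rose and 2 fell with KLA against untreated BMDM. Their median log2 changes were 0.06 and -0.06, where the medians over all probes were -0.003 and 0.005. Trim21, the cytosolic antibody receptor, averaged 10.14 log2 units with KLA plus hBD3, 11.06 with KLA, 9.05 with hBD3 and 9.24 in untreated BMDM. It rose by 1.82 with KLA (adjusted p = 1.8e-05 by limma) and was lower with KLA plus hBD3 than with KLA (-0.92, adjusted p = 0.00709 by limma). Fcgrt, the neonatal Fc receptor that recycles IgG, went the other way, with -1.11 for KLA over untreated BMDM (adjusted p = 0.000686 by limma) and 0.85 for KLA plus hBD3 over KLA (adjusted p = 0.0096 by limma). Fcrls, an Fc receptor-like gene, fell with KLA (-0.997, adjusted p = 0.0011 by limma). With median centring no gene of this list was called in KLA plus hBD3 against KLA, where Trim21 had adjusted p = 0.0654 and Fcgrt 0.154 by limma, and the Trim21 call was also lost with the mean of all its probes (-0.57).

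The next list held other receptors chosen as partners of Fcer1g, and 12 of 12 had a probe, 8 of them detected. The arrays do not show which signalling chain each receptor uses. With KLA plus hBD3 against KLA 3 rose and 1 fell, and with KLA against untreated BMDM 2 rose and 4 fell. The median changes over all 12, undetected probes included, were 0.08 and -0.02. Clec4e (Mincle, a sensor of mycobacterial glycolipid) rose by 2.70 with KLA (adjusted p = 0.000374 by limma), the largest change of the list. Tarm1 was detected in all KLA arrays, in 1 array with KLA plus hBD3, and in no hBD3 or untreated array. It was at least 1.78-fold higher with KLA than in untreated BMDM (adjusted p = 6.69e-05 by limma) and lower with KLA plus hBD3 than with KLA (-0.80, adjusted p = 0.00311 by limma). Cd300lb, detected in every group but KLA, was at least 2.31-fold lower with KLA than in untreated BMDM (adjusted p = 0.0103 by limma), a call lost when KLA replicates 2 and 3 were left out together. Pira2 fell with KLA (-1.36, adjusted p = 0.0005 by limma) and was 0.86 higher with KLA plus hBD3 than with KLA (adjusted p = 0.0229 by limma), but it belongs to a family of near-identical genes and its signal may not be its own. The count for KLA plus hBD3 against KLA depended on single arrays: it was 1 without KLA plus hBD3 replicate 2 or 3 or KLA replicate 1, and 2 without KLA plus hBD3 replicate 1 or KLA replicate 3. The Pira2 call was lost in each of these 5 cases, with adjusted p of 0.0507 to 0.0932 by limma.

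Downstream of the activating receptors, 29 of 31 listed kinases and adaptors had a probe. Of these 5 rose and 3 fell with KLA plus hBD3 against KLA, and with KLA against untreated BMDM 7 rose and 10 fell. The median changes were 0.02 and -0.02, so the list moved in no single direction. Src, which can phosphorylate ITAMs, rose by 1.93 with KLA (adjusted p = 0.000384 by limma), and Malt1, the protease of the Card9 and Bcl10 complex, by 1.63 (adjusted p = 0.000148 by limma). Lcp2 (SLP-76) averaged 7.14 log2 units with KLA plus hBD3, 8.57 with KLA, 6.51 with hBD3 and 6.75 in untreated BMDM. The KLA rise of Lcp2 was 1.82 (adjusted p = 2.49e-06 by limma), and the change with KLA plus hBD3 over KLA was -1.43 (adjusted p = 5.91e-05 by limma). The adaptor Lat2 averaged 11.91 with KLA plus hBD3, 10.59 with KLA, 12.41 with hBD3 and 12.51 in untreated BMDM. Its change was -1.92 with KLA over untreated BMDM (adjusted p = 5.74e-08 by limma) and 1.32 with KLA plus hBD3 over KLA (adjusted p = 6.25e-06 by limma), the same signs as Fcgr3.

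On the inhibitory side, 14 of 15 listed partners had a probe. Of them 4 rose and 1 fell with KLA plus hBD3 against KLA, and with KLA against untreated BMDM 1 rose and 5 fell, with median changes of 0.33 and -0.43. With the replicate block over the KLA, hBD3 and untreated arrays 11 were called with KLA against untreated BMDM, 4 higher and 7 lower. Inpp5d, the SHIP1 phosphatase that Fcgr2b recruits, averaged 8.17 log2 units with KLA plus hBD3, 6.34 with KLA, 8.97 with hBD3 and 8.91 in untreated BMDM. It was detected in 2 of the 3 KLA arrays and in all other arrays. Its change was -2.57 ± 0.17 with KLA over untreated BMDM, 5.92-fold lower (adjusted p = 8.68e-07 by limma), and 1.83 ± 0.17 with KLA plus hBD3 over KLA (adjusted p = 4.54e-05 by limma). The signs of Inpp5d were thus opposite to those of Fcgr2b in both comparisons.

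Inppl1 (SHIP2), a related phosphatase, had changes of -1.05 (adjusted p = 1.49e-06 by limma) and 0.94 (adjusted p = 1.55e-05 by limma) in the same comparisons. Csk, the kinase that restrains Src family kinases, fell with KLA (-1.19, adjusted p = 1.27e-05 by limma). Sh2d1b1, an adaptor undetected in both groups given KLA, was at least 1.05-fold lower with KLA than in untreated BMDM. The test used its measured values, not this bound (adjusted p = 0.000218 by limma). The count for KLA plus hBD3 against KLA fell to 3 without KLA plus hBD3 replicate 2 or KLA replicate 1, and to 2 with median centring, where Inppl1 was not called (adjusted p = 0.0558 by limma).

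The actin and engulfment machinery had a probe for 28 of 30 listed genes. With KLA plus hBD3 against KLA 7 rose and 1 fell, and with KLA against untreated BMDM 5 rose and 11 fell, with median changes of 0.17 and -0.47. Of these 28 genes 25 were detected, and 24.6% and 46.2% of all detected genes were called in these comparisons. Coro1a, an actin-binding protein of phagosomes, was lower with KLA than in untreated BMDM (-1.32, adjusted p = 0.000495 by limma) and 1.15 higher with KLA plus hBD3 than with KLA (adjusted p = 0.00304 by limma). The membrane-bending protein Bin1 had changes of -1.28 (adjusted p = 4.83e-06 by limma) and 1.05 (adjusted p = 7.84e-05 by limma) in these comparisons. Dock2, an activator of Rac, was lower with KLA than in untreated BMDM (-1.73 as measured, adjusted p = 0.000445 by limma), but 2 of the 3 KLA arrays did not detect it. Myo10, a myosin needed for pseudopod extension, rose by 1.37 with KLA (adjusted p = 0.00636 by limma), a call lost with median centring (0.81, adjusted p = 0.157 by limma). With median centring 0 genes of this list rose and 14 fell with KLA, and 2 rose and 1 fell with KLA plus hBD3 against KLA. KLA plus hBD3 against KLA had 5 calls without KLA plus hBD3 replicate 3 or KLA replicate 1.

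Of the interferon and cytokine regulators that act on Fc gamma receptor genes, 16 of 16 had a probe. With KLA plus hBD3 against KLA 1 rose and 2 fell, and with KLA against untreated BMDM 4 rose and 2 fell, with median changes of -0.07 and 0.23. Jak2, a kinase of the interferon gamma receptor, rose by 2.24 with KLA (adjusted p = 6.14e-06 by limma) and was lower with KLA plus hBD3 than with KLA (-0.90, adjusted p = 0.0122 by limma). That call was lost without KLA plus hBD3 replicate 3 (adjusted p = 0.0506 by limma) or KLA replicate 1 (adjusted p = 0.0593 by limma). Ifngr1, the ligand-binding chain of that receptor, averaged 9.60 with KLA plus hBD3, 8.12 with KLA, 9.31 with hBD3 and 9.04 in untreated BMDM. It was 1.48 higher with KLA plus hBD3 than with KLA (adjusted p = 0.0011 by limma). With KLA against untreated BMDM, Irf1 rose by 1.55 (adjusted p = 7.24e-06 by limma) and Stat3 by 1.22 (adjusted p = 7.11e-05 by limma), while Irf8 fell (-1.40, adjusted p = 0.000164 by limma). With median centring 3 genes of this list rose and 4 fell with KLA.

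**Figure D5:**
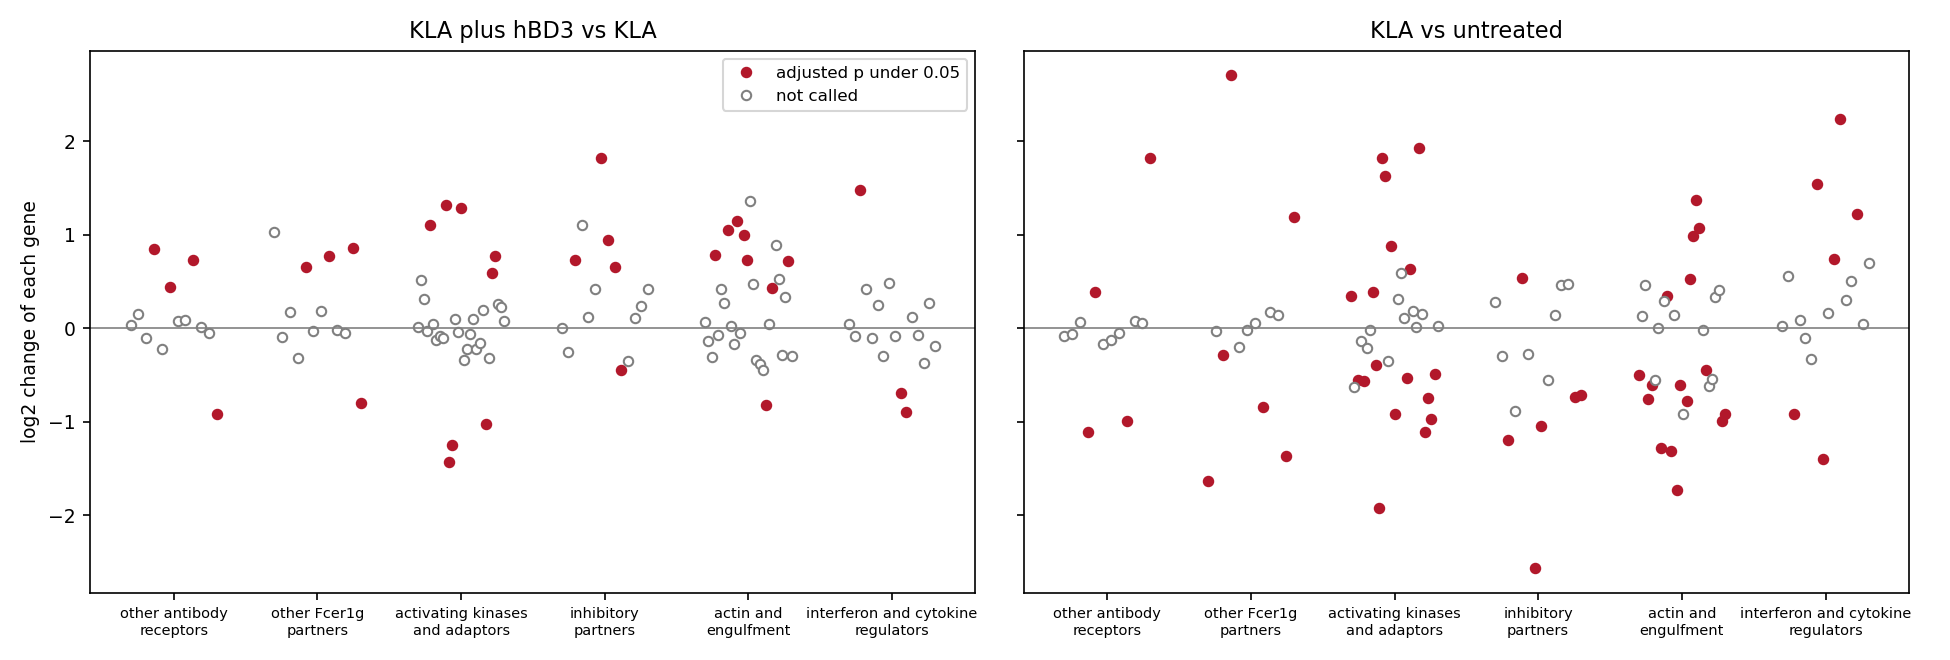
Log2 change of each gene (vertical axis) of the 6 functional lists, for KLA plus hBD3 against KLA (left) and KLA against untreated BMDM (right), with filled points at an adjusted p under 0.05. With KLA 11 of 28 actin and engulfment genes were called lower and 5 higher, where 46.2% of all detected genes were called. With KLA plus hBD3 against KLA 7 were called higher and 1 lower, where 24.6% of all detected genes were called.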

How the data were processed

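Total RNA of 12 BMDM arrays was measured on Illumina MouseWG-6 BeadChips. The authors deposited unnormalized probe intensity values, each with a detection p-value against negative controls, and a table of intensity values that they quantile-normalized across arrays. The analysis used log2 of the deposited quantile-normalized intensity of all 45281 probes. The 12 unnormalized columns, quantile-normalized again, each matched 1 sample of their own group within 0.1%; headings that name LPS were read as KLA. Groups came from the treatment labels. A group-means model of all 12 arrays was fitted with limma 3.58.1 in R 4.3.3 (8 residual and 3.66 prior degrees of freedom), with two-sided tests and Benjamini-Hochberg adjustment over all probes, and called at an adjusted p under 0.05. The number of arrays limits the precision. For a probe undetected throughout a group, the lowest detected signal of each array stood in where it exceeded the probe's own, which makes the fold a lower bound. The adjusted p printed beside such a fold is from limma on the measured values and does not test the bound.

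The members and gene lists were chosen with earlier results of these data known. From each list, up to 4 called genes with the largest change for KLA against untreated BMDM and up to 2 for KLA plus hBD3 against KLA were named, and for each member the 3 most correlated genes. The script was tested on simulated data with noise drawn independently for each array, as a check of the code only. Same-numbered arrays of the KLA, hBD3 and untreated groups deviated together in 9 of 9 pairs (r of 0.27 to 0.71). Those with KLA plus hBD3 exceeded r = 0.1 in 3 of 9 pairs (-0.07 to 0.28). The main fit used no block. A block over the KLA, hBD3 and untreated arrays only was a further alternative, chosen after seeing the data. The alternatives were median centring, neqc (offset 16) on the unnormalized table, detected probes only, the mean of all probes of a gene, only the groups compared, a replicate block, KLA replicate 1 alone as the KLA group, leaving out replicate 3 of every group and leaving out each array. The methods name 2 BeadChips for these arrays, but the file headings used here do not give the BeadChip of each array, so a BeadChip block was not run. Whether the groups were spread evenly over the BeadChips is not known. Promoter windows were taken from RefSeq. Another motif is not reported here.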

Additional observations from a re-analysis of the deposited data

Results flagged for a closer look

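The change with hBD3 in the presence of KLA differed from that without KLA for 3 of the 5 genes, by limma's test of the interaction. For Fcgr2b the interaction was -1.84 ± 0.23 on the log2 scale (SE, adjusted p = 0.00115): hBD3 changed it by -1.70 in the presence of KLA and by 0.14 without. For Fcgr3 it was 1.01 ± 0.17 (adjusted p = 0.00533 by limma), from changes of 1.21 with KLA and 0.20 without. For Fcgr1 it was 1.05 ± 0.26 (adjusted p = 0.0497 by limma), from changes of 1.59 with KLA and 0.54 without. The Fcgr1 call held in 6 of 19 alternatives, and the Fcgr3 call was lost with median centring, which left 1 of the 5 genes called. The interaction was called in 3.41% of all probes and 12.6% of detected genes.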

How the results depend on the processing

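The calls of Fcgr2b, Fcgr3 and Fcgr1 in KLA plus hBD3 against KLA and in KLA against untreated BMDM held, with the same direction, in all 20 and 21 alternatives run for them. Median centring moved most else: with KLA 14.97% of 8509 called probes were higher, against 46.1% of 6717 with quantile normalization. It called 1216 probes, not 3165, in KLA plus hBD3 against KLA, 6180, not 1986 (5.23% higher, not 44.7%), in KLA plus hBD3 against untreated BMDM, and 425, not 1542 (60.5% higher, not 48.8%), in the interaction.

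Genes called also changed in number. With median centring KLA plus hBD3 against KLA had 0 (not 4) antibody receptors, 5 (not 8) kinases and adaptors, 2 (not 5) inhibitory partners and 3 (not 8) actin genes, and of the 5 members 2 (not 1) were called in KLA plus hBD3 against untreated BMDM and 1 (not 3) in the interaction. With KLA replicate 1 alone as KLA, a lone array assumed to vary like the other groups, 2 antibody receptors, 1 (not 4) Fcer1g partner and 5 actin genes were called in KLA plus hBD3 against KLA. Without replicate 3 of every group 3 members were called in KLA plus hBD3 against untreated BMDM. Leaving out single arrays gave 1 to 3 members there, and in KLA plus hBD3 against KLA 1 to 5 Fcer1g partners, 3 to 5 inhibitory partners and 5 to 9 actin genes.

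Directions turned only for changes not called with quantile normalization. Median centring turned KLA against untreated BMDM for Fcgr4 (-0.45), KLA plus hBD3 against untreated BMDM for Fcgr1 (-0.029) and Fcgr4 (-0.28), hBD3 for Fcgr2b (-0.18), Fcgr3 (-0.088) and Fcgr4 (-0.017), and the Fcgr4 interaction (0.18). That interaction was also 0.14 without replicate 3 of every group, and -0.26 to 0.12 when single arrays were left out. The cause was not tested. Fcer1g was undetected in every array and was left out of these comparisons.

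The paper describes each treatment as done in triplicate, on separate mice. No source used here says that a replicate number marks a shared animal. Of 12 arrays, 10 correlated best with their own number, as a hint from the data. With the replicate block the calls of the 5 members did not change, while 4161 probes were called in KLA plus hBD3 against KLA, 7823 in KLA against untreated BMDM, 3065 in KLA plus hBD3 against untreated BMDM, 15 with hBD3 (not 2) and 2307 in the interaction. A block without the KLA plus hBD3 group, chosen after seeing the data, called 8235 probes with KLA, 85 with hBD3 and 11 (not 6) inhibitory partners with KLA, and changed no call of a member.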
